A study of Homo sapiens with 8 samples.

Results

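*ST14* and *HTRA1* are the 2 genes measured here of 8 listed genes of secreted and membrane-bound serine proteases, out of 4072 named genes in all. The members were chosen by gene symbol: every transcript cluster (the set of probes that the array reads out for a locus) whose symbol in the platform annotation is on the list. *ST14* and *HTRA1* have 1 transcript cluster each, and *PLAU*, *PRSS23*, *TMPRSS4*, *TMPRSS5*, *TMPRSS12* and *TMPRSS13* were not analysed here. The difference of *ST14* and *HTRA1* between the groups was known when they were chosen, so it is given below as a description with no test. The study profiled total RNA of 8 clones of LNCaP, which is a human line from an androgen receptor-positive prostate tumor, on Human Gene 2.0 ST arrays of Affymetrix, with 1 array per clone. The control group holds 4 clones transduced with lentivirus carrying the control vector (clones 3, 4, 8 and 9), and the *HIST1H1A* group holds 4 clones that over-express tagged *HIST1H1A*, which encodes the linker histone H1.1 (clones 2, 8, 9 and 10). All 8 came from blasticidin-selected cells and were isolated by serial dilution. The spread within a group therefore holds differences between clones together with differences in measurement, which cannot be told apart with 1 array per clone.

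Serine proteases cut proteins with a catalytic serine. *ST14* encodes matriptase, a transmembrane protease of epithelial cells that activates other proteases and growth factors at the cell surface and is held in check by Kunitz-type inhibitors. *HTRA1* encodes a secreted trypsin-like protease that carries a PDZ domain, cleaves extracellular matrix proteins and acts on TGF-beta family signaling. *PLAU* encodes urokinase, which turns plasminogen into plasmin.

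Signals were at hand for 16377 clusters, 4247 of them with a gene symbol, and the median log2 signal of an array lay between 3.25 and 3.30. A gene is called measured here if a cluster with its symbol was among these signals. Other listed genes were not analysed, which says nothing of their levels. The deposited log2 signals were compared with limma, and a cluster was counted as passed at a Benjamini-Hochberg adjusted p under 0.05. By this rule 948 clusters (5.79% of all) passed, 617 higher (3.77%) and 331 lower (2.02%) in *HIST1H1A* clones, and 12.5% of the 4072 named genes passed (8.72% higher and 3.83% lower). The arrays of the groups did not overlap in 11.1% of all clusters and in 818 of the 4072 named genes. *HIST1H1A* itself was not analysed here, so the over-expression was not checked in these arrays. The paper reports that it was checked in clonal isolates by qRT-PCR and Western blot. The number of arrays limits the precision.

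*ST14* was lower in *HIST1H1A* clones. Its log2 signal was 7.87, 8.00, 7.18 and 7.71 in control clones 3, 4, 8 and 9, and 4.62, 4.53, 4.66 and 4.06 in *HIST1H1A* clones 2, 8, 9 and 10. The groups did not overlap, with 2.52 on the log2 scale between the lowest control clone and the highest *HIST1H1A* clone. Control clone 8 was the lowest of its group and *HIST1H1A* clone 10 the lowest of its own. The gap to the nearest clone, as a share of the group's range, was 0.642 and 0.781, under Dixon's 95% critical value in both. Control clones averaged 7.69 ± 0.36 and *HIST1H1A* clones 4.47 ± 0.28 (SD, n = 4 each). This was a log2 difference of -3.22 (standard error 0.21), or a level 9.34-fold lower. Over the 16 pairs of 1 clone from each group, *ST14* was lower by 5.74-fold to 15.4-fold. Every *HIST1H1A* clone remained above 3.27, the median of all values. Ordered from the most negative difference, *ST14* was at rank 25 of the 16377 clusters and at rank 14 of the 4072 named genes.

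*HTRA1* was higher in *HIST1H1A* clones. Its log2 signal was 3.96, 4.43, 4.21 and 4.08 in control clones 3, 4, 8 and 9, and 7.07, 8.19, 8.26 and 7.96 in *HIST1H1A* clones 2, 8, 9 and 10. The groups did not overlap here either, and 2.63 on the log2 scale lay between the highest control clone and the lowest *HIST1H1A* clone. *HIST1H1A* clone 2 was the lowest of its group, 0.80 below the group's mean, with a gap of 0.751 of the range, also under Dixon's value. Control clones averaged 4.17 ± 0.20 and *HIST1H1A* clones 7.87 ± 0.55 (SD, n = 4 each). This was a log2 difference of 3.70 (standard error 0.26), or a level 13.0-fold higher, and 6.20-fold to 19.6-fold over the 16 pairs of clones. Ordered from the most positive difference, *HTRA1* was at rank 10 of all clusters and at rank 8 of the named genes.

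**Figure D1:**
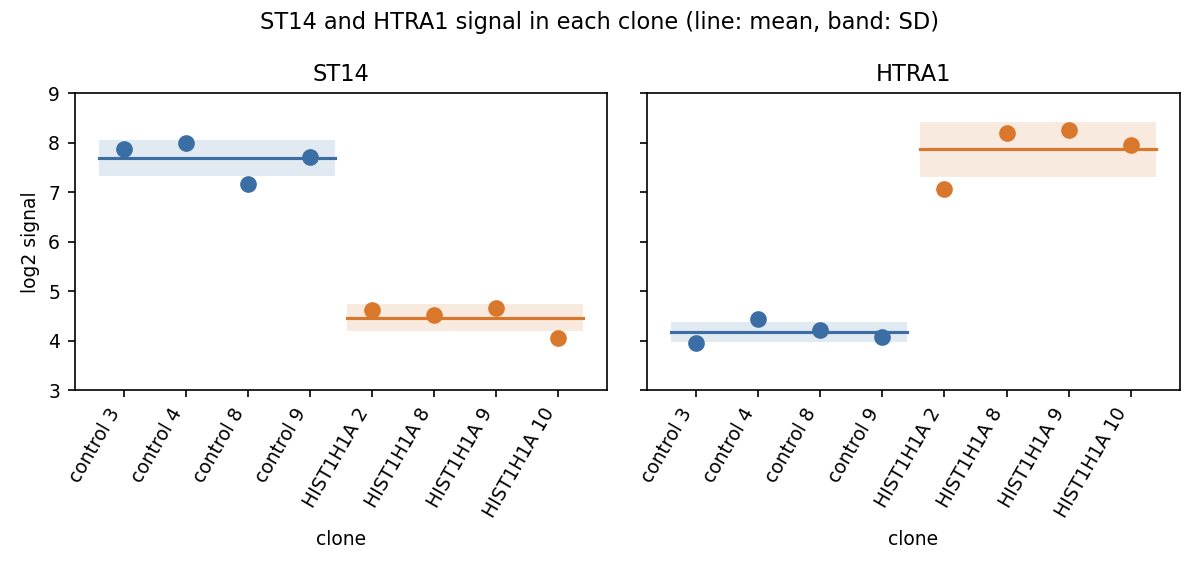
Log2 signal of *ST14* (left) and *HTRA1* (right) in each clone, with control clones in blue and *HIST1H1A* clones in orange; the line is the group's mean and the band its SD (n = 4). The 4 control clones of *ST14* sit between 7.18 and 8.00 and all *HIST1H1A* clones at or below 4.66, while *HTRA1* runs the other way, from at most 4.43 to at least 7.07.

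The spread between clones was not alike for these genes. The SD of *HTRA1* among *HIST1H1A* clones, 0.55, was larger than that of 92.0% of all clusters in the same clones, and its SD among control clones, 0.20, was larger than that of 35.5%. For *ST14* the SD was larger than that of 65.8% of clusters among control clones and 66.6% among *HIST1H1A* clones. The clusters compared were not matched for signal. By signal, *HTRA1* ranked at 62.8% to 69.5% of all clusters in control clones and at 91.2% to 96.4% in *HIST1H1A* clones. Whether its SD is unusual for its signal was not tested. The clones that stood lowest were not the same ones. *ST14* lay 0.51 below its group's mean in control clone 8, where *HTRA1* lay 0.04 above its own. *ST14* lay 0.41 below in *HIST1H1A* clone 10, where *HTRA1* lay 0.09 above. In *HIST1H1A* clone 2, where *HTRA1* was lowest, *ST14* lay 0.16 above its group's mean. These deviations are given as values, since 4 clones per group are too few for a correlation.

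*ST14* and *HTRA1* were thus 2 of 2 measured members without overlap between the groups, beside 11.1% of all clusters and 818 of the 4072 named genes. Nothing is read from these shares, because the same contrast led to the choice of the genes.

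The sequence just before the start of *HTRA1* is shown to give its base composition and motifs. The promoter of *ST14* was not analysed here, so the members were not compared in sequence. The stretch covers the 250 bases before the start site in RefSeq, at chr10:122461303-122461552 on the plus strand of GRCh38.p14. Capitals mark the GC box GGGCGG, which Sp1-family factors bind, and the CCAAT box CCAAT, each searched on both strands.
HTRA1 promoter: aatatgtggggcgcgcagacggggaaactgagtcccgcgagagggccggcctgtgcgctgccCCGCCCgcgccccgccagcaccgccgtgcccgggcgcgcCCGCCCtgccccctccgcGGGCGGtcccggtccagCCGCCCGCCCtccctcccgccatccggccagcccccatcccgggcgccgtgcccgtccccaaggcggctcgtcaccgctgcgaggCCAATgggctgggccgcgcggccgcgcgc
This stretch holds 5 GC boxes, of which the last 2 overlap, and 1 CCAAT box. Of 35116 RefSeq promoter windows of the same length, 42.6% hold a GC box and 32.0% a CCAAT box. Its letters are 81.2% G or C with 39 CpG sites, higher than in 97.7% and 97.3% of those windows. The E-box CAGGTG, which ZEB factors bind, was searched on both strands and is not among these letters, while 17.5% of the windows hold it. These matches describe the sequence and not the binding of any factor.

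Of 78 other listed genes of serine proteases, 10 were measured. Only *PRCP*, which encodes a lysosomal prolylcarboxypeptidase, passed, and none fell. This is 1 of 10 genes, beside 12.5% of all named genes and 5.79% of all clusters, a share near the background. The median log2 difference of these 10 genes was -0.01, beside 0.03 over all named genes and -0.01 over all clusters. *PRCP* was at 5.85, 5.95, 5.58 and 5.83 in control clones 3, 4, 8 and 9 and at 6.33, 6.68, 6.70 and 6.73 in *HIST1H1A* clones 2, 8, 9 and 10. The groups did not overlap, and *PRCP* rose 1.75-fold (log2 difference 0.81, standard error 0.14, adjusted p = 0.0096 from limma). The coagulation proteases *F2*, *F7* and *F10*, encoding prothrombin, factor VII and factor X, had log2 differences of -0.02, -0.30 and 0.00 and did not pass. *TPP1*, a lysosomal tripeptidyl peptidase, and *PCSK7*, a proprotein convertase, were at 0.30 and 0.12. *CTRC*, a pancreatic chymotrypsin, was at -0.35, and *MASP2*, *OVCH2* and *HABP2* lay between -0.11 and 0.09. None of these 10 genes had a difference as large as those of *ST14* and *HTRA1*. Nothing is read from this, because *ST14* and *HTRA1* were chosen with their differences known.

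Of 41 genes of protease inhibitors, 4 were measured and none passed. The Kunitz-type inhibitors of matriptase and the serpin that blocks urokinase were not analysed here. *KAZALD1*, whose protein carries a Kazal-type domain, had a log2 difference of 0.52 (standard error 0.26, adjusted p = 0.43 from limma), with values of 4.79 to 5.65 in control clones and 5.43 to 6.31 in *HIST1H1A* clones. The groups overlapped. *A2M*, which encodes the broad protease trap alpha-2-macroglobulin, and its relatives *A2ML1* and *PZP* had differences of 0.22, -0.22 and -0.13, and both groups' means of all 3 lay below 3.27, so these differences rest on low signals.

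Of 38 genes of substrates, receptors and partners of matriptase and urokinase, 7 were measured, and 2 rose, none fell and 5 did not pass. *MET* and *TJP1*, also on this list, were not analysed here. The paper lists *MET* as higher in *HIST1H1A* clones on arrays and reports lower *TJP1* by qRT-PCR. The median log2 difference of the 7 measured genes was 0.21, beside 0.03 over all named genes and -0.01 over all clusters. Upward, 8.72% of all named genes and 3.77% of all clusters passed. *S100A10*, the annexin A2 partner that binds plasminogen at the cell surface, was at 3.86, 3.01, 2.55 and 2.89 in control clones 3, 4, 8 and 9 and at 4.77, 4.93, 4.93 and 4.97 in *HIST1H1A* clones 2, 8, 9 and 10. It rose 3.53-fold (log2 difference 1.82, standard error 0.25, adjusted p = 0.0033 from limma), with control clone 3 the highest of its group and still below every *HIST1H1A* clone. *CD44*, the hyaluronan receptor, rose 1.90-fold from a mean of 2.78 ± 0.11 to one of 3.70 ± 0.32 (SD, n = 4 each, adjusted p = 0.014 from limma). Without *HIST1H1A* clone 9 its adjusted p was 0.053 from limma. The control means of *S100A10* and *CD44* lay below 3.27, so their folds rest on low signals.

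*LRP1*, the endocytic receptor that clears complexes of urokinase with its inhibitor, was at 4.10 to 5.08 in control clones and 4.88 to 5.94 in *HIST1H1A* clones. Its log2 difference of 0.94 (standard error 0.28) did not pass (adjusted p = 0.11 from limma). The groups overlapped by *HIST1H1A* clone 2, at 4.88, and control clone 4, at 5.08. Without *HIST1H1A* clone 2 the difference was 1.18 and passed (adjusted p = 0.031 from limma), and without control clone 4 it was 1.09 and did not (adjusted p = 0.11 from limma). *HTRA1* and *PRCP* were lowest of their group in the same clone. *PDGFD*, a growth factor that matriptase and urokinase can activate, *FLG* and *FLG2*, the filaggrins of the skin barrier, and *MMP14*, a membrane metalloproteinase, had differences between 0.04 and 0.21 and did not pass. The means of *PDGFD* and *FLG2* lay below 3.27 in both groups.

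Of 30 genes of *HTRA1* substrates and of the handling of TGF-beta ligands, 5 were measured and none passed. *TGFB1* and *TGFBR2*, also on this list, were not analysed here, and the paper lists both as higher in *HIST1H1A* clones. *LTBP3*, which encodes a latent TGF-beta binding protein, averaged 6.07 ± 0.27 in control and 6.40 ± 0.29 in *HIST1H1A* clones (SD, n = 4 each, adjusted p = 0.52 from limma). *EFEMP2*, a fibulin of elastic fibers, was at a log2 difference of 0.08. *DCN*, which encodes decorin, *MGP*, matrix Gla protein, and *LTBP2* had differences of -0.01, 0.00 and -0.14, with both groups' means below 3.27. Over the 4 lists together, 26 of 187 genes were measured, and 3 rose and 23 did not pass, which is beside 12.5% of all named genes. At an unadjusted p under 0.05, 5 of the 26 passed. The lists were written with earlier results of these data known.

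**Figure D2:**
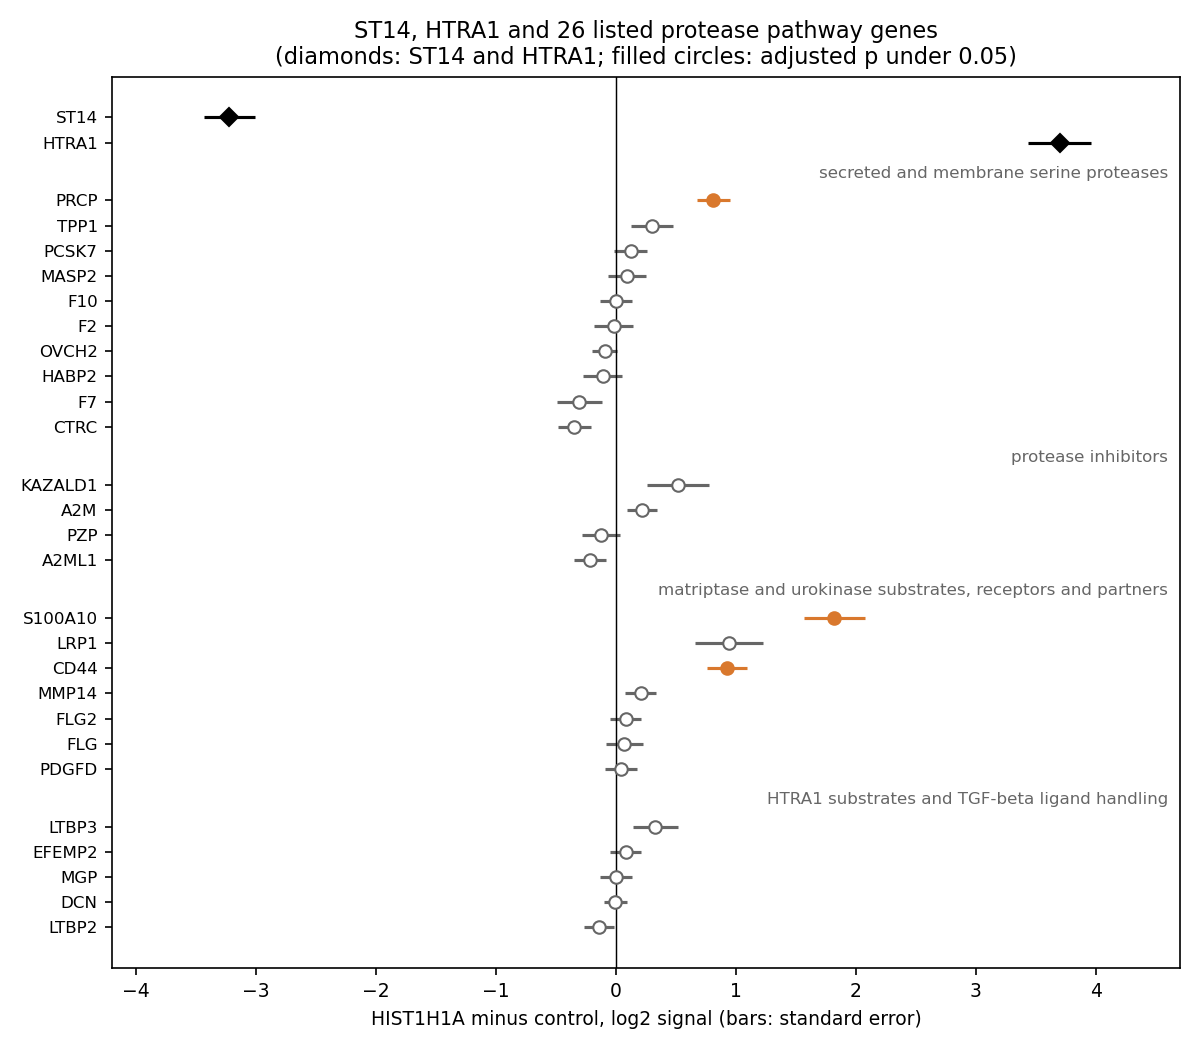
Log2 difference between *HIST1H1A* and control clones (n = 4 each) for *ST14*, *HTRA1* and the 26 listed genes measured, with bars for the standard error. *ST14* at -3.22 and *HTRA1* at 3.70, chosen with their differences known, lie outside the measured listed genes, which range from -0.35 to 1.82. Filled circles mark *PRCP*, *S100A10* and *CD44*, the 3 that passed.

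*ST14* lies on chromosome 11 and *HTRA1* on chromosome 10. Among the 3 measured genes on each side of *ST14* in the order of the RefSeq annotation, none passed. Their log2 differences ranged from -0.84 for *SNX19*, a sorting nexin, to 0.70 for *APLP2*, an amyloid precursor-like protein (adjusted p = 0.22 and 0.070 from limma). *APLP2*, the nearest before *ST14*, was at 9.36 to 10.2 in control clones and 10.4 to 10.6 in *HIST1H1A* clones, without overlap and in the direction opposite to *ST14*. It passed in 4 other settings, among them quantile normalization, with adjusted p from 0.011 to 0.044 from limma. *ZBTB44*, the nearest after *ST14*, was at 0.64 (adjusted p = 0.24 from limma), and *PRDM10*, *PRDM10-DT* and *NTM* lay between 0.01 and 0.11. With array weights *SNX19* passed (log2 difference -1.01, adjusted p = 0.034 from limma). Around *HTRA1*, none of the 6 genes passed either. The differences ran from -0.45 for *C10orf88B* to 0.08 for *ARMS2*, the nearest before *HTRA1*, with *DMBT1*, the nearest after it, at -0.09. The means of *DMBT1*, *BTBD16* and *MIR3941* lay below 3.27 in both groups. The large differences of *ST14* and *HTRA1* were thus not seen in the measured genes next to them.

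**Figure D3:**
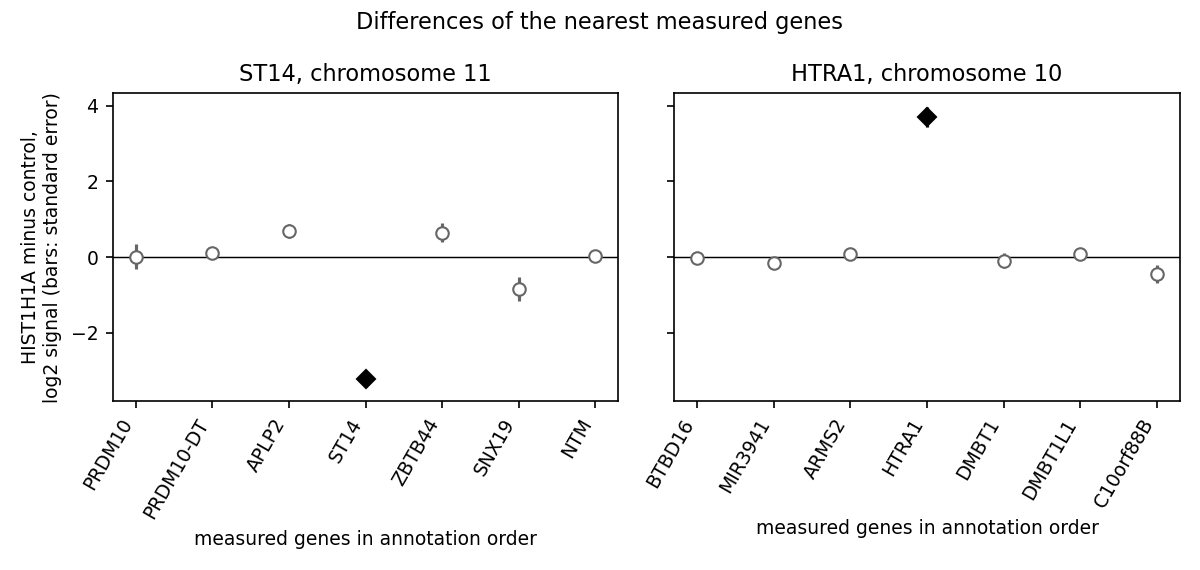
Log2 difference between *HIST1H1A* and control clones, with standard errors, for *ST14* (left) and *HTRA1* (right) and the 3 nearest measured genes on each side in annotation order, not drawn to distance. The neighbours of *ST14* lie between -0.84 and 0.70 and those of *HTRA1* between -0.45 and 0.08.

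The genes with the profile most like *ST14* were chosen by the lowest root mean square difference of log2 signals over the 8 arrays, each gene centred on its own mean. They were *LUZP2* (0.18), *ERBB3* (0.27), *C1orf210* (0.28), *CSKMT* (0.29) and *SELENBP1* (0.34). *ERBB3*, a receptor tyrosine kinase of the EGFR family, was at 7.62, 8.04, 7.29 and 7.24 in control clones 3, 4, 8 and 9 and at 3.86, 4.49, 4.35 and 3.98 in *HIST1H1A* clones 2, 8, 9 and 10. *LUZP2*, a leucine zipper protein, had its lowest control value in clone 8 and its lowest *HIST1H1A* value in clone 10, as *ST14* did, and its *HIST1H1A* mean of 3.14 lay below 3.27. All 5 were lower in *HIST1H1A* clones, by 7.67-fold to 10.6-fold, and they lie on chromosomes 1, 11 and 12. The genes most like *HTRA1* were *LINC02381* (0.29), *SV2A* (0.29), *KIRREL1* (0.34), *FZD8* (0.50) and *DZIP1* (0.53). *SV2A*, a synaptic vesicle glycoprotein, was at 4.53 to 5.00 in control clones and 7.57 to 8.20 in *HIST1H1A* clones. Its lowest *HIST1H1A* value was in clone 2, as for *HTRA1* and *LINC02381*. *KIRREL1* was at 7.37 in both *HIST1H1A* clones 2 and 10, *FZD8* was lowest in clone 10 and *DZIP1* in clone 8. All 5 genes most like *HTRA1* were higher in *HIST1H1A* clones, by 9.37-fold to 15.7-fold. The measure is set mostly by the difference between the groups, so these lists say little about clone-to-clone variation.

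**Figure D4:**
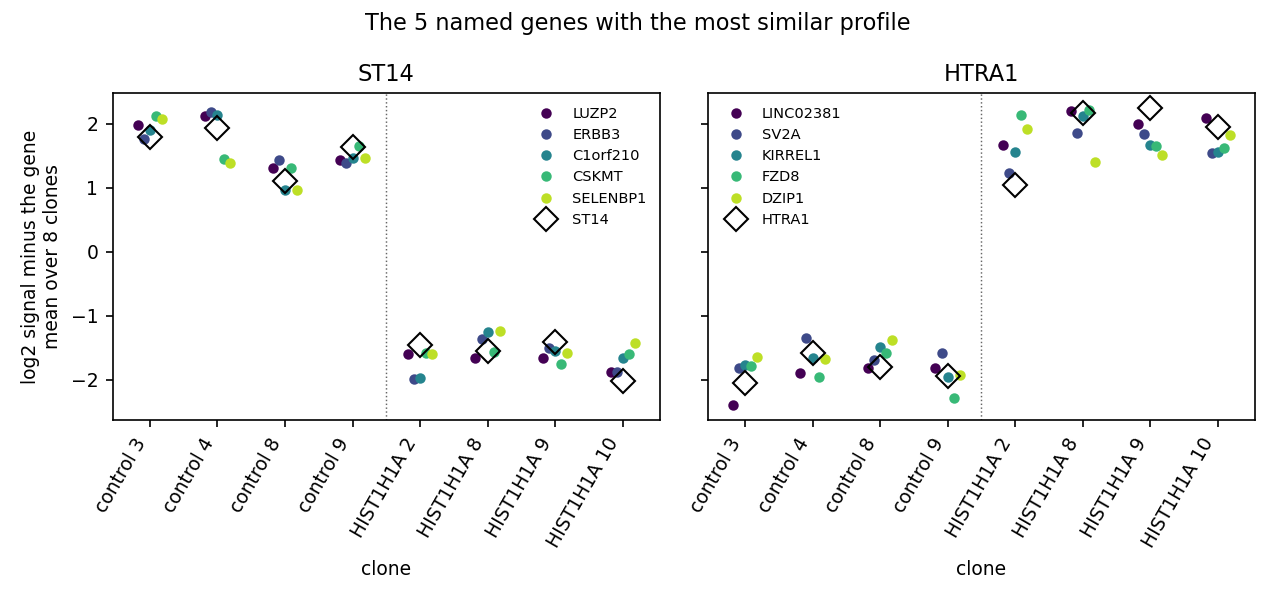
Log2 signal of *ST14* (left) and *HTRA1* (right), as open diamonds, and of the 5 named genes most like each, as points, in the 8 clones, with each gene's own mean subtracted. The dotted line parts the control clones from the *HIST1H1A* clones; the clones have no order within a group.

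Some markers of cell identity differed between the same groups. Among all named genes, 8.72% passed upward and 3.83% downward, and of the markers named below 4 did not pass. Of 21 luminal prostate markers 5 were measured, and all 5 fell: *FOLH1*, *EHF*, *KRT8*, *KRT18* and *CREB3L4*. Their mean log2 signal ranged from 7.32 to 7.90 in control clones and from 4.58 to 4.64 in *HIST1H1A* clones. *FOLH1*, which encodes prostate-specific membrane antigen and is a defining marker of LNCaP, averaged 8.63 ± 0.52 in control and 2.65 ± 0.24 in *HIST1H1A* clones (SD, n = 4 each), the latter below the median of all values. Of 19 mesenchymal markers 4 were on hand: *TAGLN* and *MMP14* did not pass, and *ZEB1* and *VIM*, the latter by its brightest of 3 clusters, rose. Of the other clusters of *VIM*, 1 passed and 1 did not (adjusted p = 0.0031 and 0.16 from limma). Their mean ranged from 3.72 to 3.86 in control clones and from 4.72 to 4.86 in *HIST1H1A* clones. Of 16 genes listed as markers of PC-3, another prostate tumor line, *CD44* rose and *S100A2* had a log2 difference of -0.15, with a mean over both of 3.16 to 3.35 in control clones and 3.32 to 3.89 in *HIST1H1A* clones. Of 6 genes listed for HEK293, a kidney-derived line often used to make lentivirus, *ZIC2* rose 2.99-fold and *PAX2* was at 0.22, with a mean over both of 4.12 to 4.67 in control clones and 5.08 to 5.42 in *HIST1H1A* clones. The part of cell identity in the levels of *ST14* and *HTRA1* was not tested. In RNA of whole cultures, fewer cells of a type and less RNA per cell cannot be told apart.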

How the data were processed

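RNA of 4 control and 4 *HIST1H1A* clones of LNCaP was hybridized to 1 array each. The values of each transcript cluster are log2 signals, as deposited by the authors, and were used as they stood. Partek is named for the authors' work, while its version, the summarization and the normalization were not given in the sources used here. Symbols came from the platform's annotation through gene identifiers. The strand that a cluster reads was not checked. The groups were compared with limma 3.58.1 in R 4.3.3 on all 8 arrays with no covariates, with adjustment over all 16377 clusters, and the fit was tested on simulated data. Where several clusters shared a symbol, the brightest stood for the gene. The members, the gene lists and the rule for named genes were chosen with earlier results of these data known. The rule named the members, their 3 nearest measured genes on each side, the 5 most similar profiles, all measured marker genes, and in each pathway list up to 5 rises and 5 falls and a fixed set of partners; other list genes are named to account for every measured one. Alternatives were a plain t-test, limma with array weights or with a robust, trended prior, 2 normalizations, a filter on dim clusters (above the median in 4 arrays), named clusters only, a fold over 2, the mean over clusters, leaving out each array, and the arrays of clones 8 and 9 with and without a block.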

Additional observations from a re-analysis of the deposited data

Results flagged for a closer look

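For the 91 genes named here, 182 groups of 4 clones were examined for a clone far from the rest, and 8 had one, where about 9.1 would be met by chance. Neither *ST14* nor *HTRA1* was among them. Among the listed pathway genes, *PRCP* was at 6.327 in *HIST1H1A* clone 2 with the nearest clone at 6.683, *PDGFD* at 3.238 in *HIST1H1A* clone 10 against 2.942, *FLG* at 4.000 in *HIST1H1A* clone 8 against 3.594 and *F7* at 5.086 in control clone 3 against 4.440. Among neighbours and similar profiles, *CLDN25* was at 4.778 in control clone 3 against 4.164, *DIP2B* at 7.005 in *HIST1H1A* clone 8 against 7.693, *DMBT1L1* at 3.931 in control clone 8 against 3.529 and *LINC02381* at 3.110 in control clone 3 against 3.622. Each number is a log2 signal.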

How the results depend on the processing

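*ST14* and *HTRA1*, chosen on this contrast, are given here by value with no test. Leaving out 1 array gave log2 differences of -3.39 to -3.09 for *ST14* and 3.57 to 3.97 for *HTRA1*. Clone numbers 8 and 9 occur in both groups only as numbers, and the deviations of same-numbered clones correlated at 0.07 and -0.22. In these 4 arrays *ST14* was at -2.85 and *HTRA1* at 4.08, with a replicate block or without. With the block, where fewer arrays were fitted, limma called 0 clusters (2103 at an unadjusted p under 0.05) and 0 pathway genes (7 unadjusted), and without the block 75 clusters and 0 pathway genes. On all arrays the 948 clusters became 618 with a fold over 2 and 552 with the plain t-test, and array weights gave 1296 (735 higher and 561 lower, against 617 and 331), for which the cause was not tested. They became 602 (without *HIST1H1A* clone 9) to 963 when 1 array was left out. The 3 pathway genes became 1 with a fold over 2 and 4 with named clusters only. They became 2 to 4 when 1 array was left out: 2 without *HIST1H1A* clone 9. Of 26 other named genes that passed, 19 kept an adjusted p under 0.05 in all 17 settings with 7 or 8 arrays, the size of the fold left aside. *ADK*, *KRT18*, *MPZL3* and *ZEB1* were each lost in 5, *CREB3L4* in 2, and *CD44* and *ZBTB16* in 1.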

Other observations

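The 6 listed proteases that were not analysed here have 30 measured neighbours, the 3 nearest on each side of each in annotation order, counted once. Of these, 5 fell and none rose, beside 2.02% of all clusters and 3.83% of named genes that passed downward. *MPZL3* and *MPZL2*, neighbouring genes of immunoglobulin-type adhesion proteins next to *TMPRSS4* and *TMPRSS13*, were 4.36-fold and 2.72-fold lower (adjusted p = 0.016 and 0.0020 from limma), and the *HIST1H1A* mean of *MPZL2*, 2.92, lay below the median of all values. *ZBTB16*, a zinc finger transcription factor near *TMPRSS5*, was 3.97-fold lower (adjusted p = 0.0080 from limma). *TMT1A*, next to *TMPRSS12*, was 3.88-fold lower and *ADK*, the adenosine kinase gene near *PLAU*, 2.30-fold lower (adjusted p = 0.0033 and 0.026 from limma). None of the 6 neighbours of *PRSS23* passed. Neighbours say nothing of the levels of the proteases themselves.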
